A study of Mus musculus with 2 samples.

Results

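The 9 genes described here serve water and potassium transport and were followed across nuclei of the mouse colon: the aquaporins Aqp1, Aqp3, Aqp4, Aqp8 and Aqp11, the potassium channel genes Kcnn4, Kcnma1 and Kcnq1, and Kcne3, which encodes a subunit that binds the Kcnq1 channel. They were taken by symbol, 9 of the 32285 genes counted in both libraries, without regard to their values. The nuclei came from the colon of 15-week-old male C57BL/6 mice, either Pink1 knockout or wild-type littermates, kept free of specific pathogens. Pink1 encodes a mitochondrial kinase known for its role in clearing damaged mitochondria. Nuclei of 3 mice per genotype were sorted on a DNA stain and pooled into 1 library, so single mice cannot be followed and no difference between genotypes could be tested. The wild-type library was batch 1 and the knockout library batch 2, so genotype, library and batch cannot be told apart.

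Aquaporins are membrane channels through which water, and for some members glycerol or hydrogen peroxide, passes along its gradient. In the colon, water follows salt across the surface epithelium, while crypts secrete chloride and with it fluid. Potassium channels set the membrane voltage that drives this chloride exit: the calcium-activated channel of Kcnn4 and the Kcnq1 channel with its Kcne3 subunit act on the basolateral side of crypt cells, and the large-conductance channel of Kcnma1 carries potassium secretion in the epithelium and relaxes smooth muscle.

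After filtering, 8256 wild-type nuclei (median 1626 UMIs) and 10966 knockout nuclei (median 1570 UMIs) were kept, of which 6854 and 8622 were epithelial. A UMI is a molecular tag that counts each captured RNA molecule once. The libraries had 28 barcodes in common, 22 of them among the kept nuclei. Levels are given in CPM, UMIs of a gene per 1000000 UMIs of nuclear-encoded genes, both summed over the nuclei of a group, and ratios are knockout over wild-type. Parentheses hold 95% intervals for counting error alone, which say nothing of the spread between mice. Those of levels and ratios treat each UMI as independent, so they also leave out the spread between nuclei and are too narrow where a few nuclei hold many UMIs. Pink1 itself had 170 wild-type and 113 knockout counts, a ratio of 0.541 (0.422 to 0.69). The sources used here do not say which exons the knockout lacks, so 3' tags need not reflect the deletion. Between the libraries, the immediate early gene Fos was 7.73-fold (7.21 to 8.3) higher in the knockout epithelium and Epcam, a surface protein of all epithelial cells, 1.31-fold (1.27 to 1.36). With the immediate early genes left out of the total, the epithelial ratio of each of the 8 genes measured stayed inside its counting interval. This step changes all 8 ratios by the same factor, so it shows only the share of these genes in the total. Any other part of Fos or Epcam in the ratios below was not tested.

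The 30 clusters of nuclei gave 16 named classes, 1 mixed cluster and 4 epithelial clusters left without a class name, all formed without the 9 genes or the other transport genes described here. Defining markers stood where the class names place them: Muc2 at 11841 and 11991 CPM in goblet-like nuclei of the wild-type and knockout libraries, Lgr5 at 140.4 and 153 CPM in crypt-base nuclei, Top2a at 1095 and 1166 CPM in proliferating nuclei and Myh11 at 3204 and 4033 CPM in smooth muscle-like nuclei. The colonocyte-like nuclei, the absorptive cells, formed 3 clusters, called here by a leading gene: Apol10a, Slc10a2 and Slc37a2. The antimicrobial gene Reg3b also led the Apol10a cluster, the acute-phase gene Saa1 and the neutrophil gene Ly6g the Slc37a2 cluster, and Slfn4 and Ang4 the Fcgbp goblet-like cluster. The crypt-base clusters are called Smoc2 and Dmbt1, the goblet-like ones Reg4 and Fcgbp, and the unnamed epithelial ones Gsdmc3, Nxpe4, Plet1 and Meg3. The Apol10a, Slc10a2 and Slc37a2 clusters had 548, 418 and 512 nuclei in the wild-type and 1136, 763 and 401 in the knockout library, so values over all colonocyte-like nuclei mix them differently and the clusters are given one by one. Muc2 UMIs also occurred outside goblet cells, at 544 and 419 CPM in smooth muscle-like nuclei, which should lack the gene.

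Aqp4, a water channel of basolateral membranes, was the aquaporin with the most counts and was epithelial. Of its counts, 97.9% in the wild-type library and 98.6% in the knockout library lay in epithelial nuclei. The level was highest in the Apol10a colonocyte cluster, at 1382 CPM (1310 to 1457) in wild-type and 1073 CPM (1027 to 1120) in knockout nuclei, followed by the Gsdmc3 cluster at 965 and 824 CPM and the Dmbt1 crypt-base cluster at 868 and 559 CPM. The last pair overlapped in the wild-type library, where the intervals were 919.9 to 1011 and 817 to 921 CPM. The Slc37a2 colonocyte cluster stood at 438 and 195 CPM. The Slc10a2 colonocyte cluster, at 49.4 and 33.6 CPM, was far below both other colonocyte clusters. The Slc10a2 cluster, goblet-like nuclei (35.5 and 26.7 CPM) and the Plet1 cluster (20 and 10.1 CPM) had intervals that overlapped those of smooth muscle-like nuclei. In smooth muscle-like nuclei (42.5 and 21.2 CPM) the gene is read as background. In the Apol10a cluster 46.4% (42.1 to 50.6) of wild-type and 43.6% (40.7 to 46.5) of knockout nuclei had an Aqp4 UMI, against 4.41% and 2.28% of smooth muscle-like nuclei. Thinning every nucleus to 500 UMIs dropped no nucleus and gave 33.8% and 27.6% in the Apol10a cluster and 2.37% and 1.33% in smooth muscle-like nuclei. Median depths were 1620 and 1609.5 UMIs in the Apol10a cluster and 1240 and 1275 UMIs in smooth muscle-like nuclei.

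**Figure D1:**
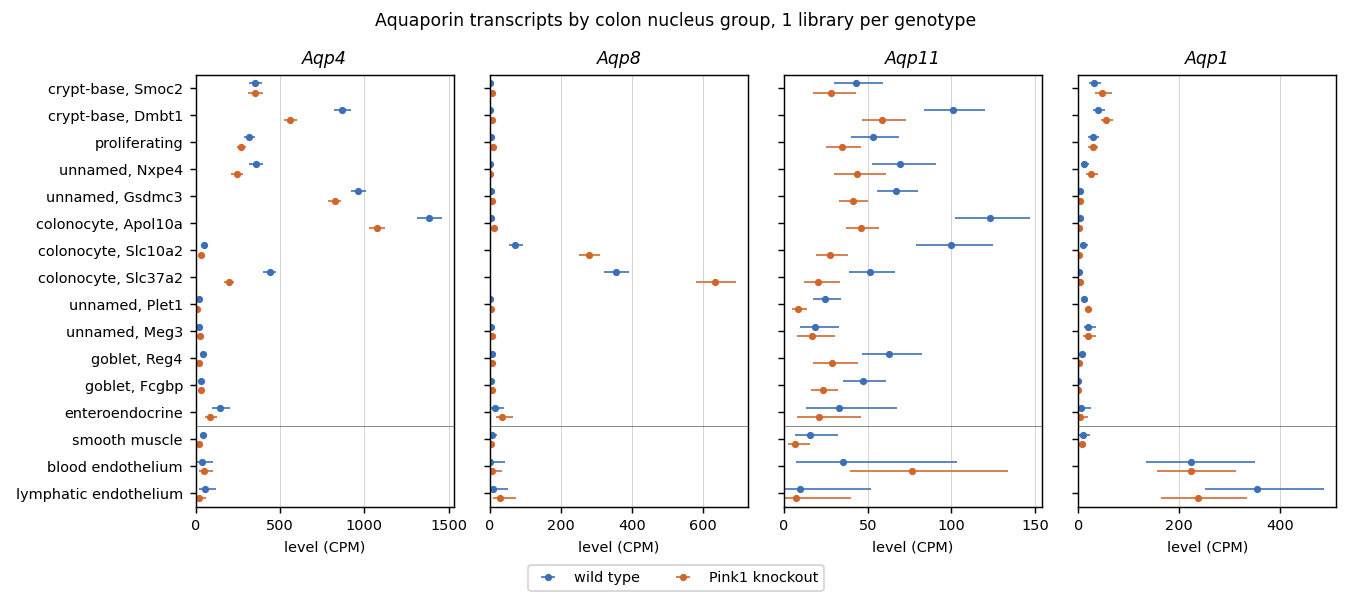
Levels (CPM, linear axes that differ between panels) of Aqp4, Aqp8, Aqp11 and Aqp1 in epithelial groups (above the line) and in muscle and endothelium (below it), 1 point per library with 95% counting intervals. Aqp4 peaks in the Apol10a cluster at 1382 and 1073 CPM, Aqp8 in the Slc37a2 cluster at 355 and 634 CPM, and Aqp1 in endothelium.

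Over all epithelial nuclei Aqp4 had 5786 wild-type and 5857 knockout counts, or 444 and 379 CPM, a ratio of 0.853 (0.822 to 0.884). The ratio was below 1 in 11 of the 13 epithelial clusters with at least 20 counts, and the counting interval was below 1 in 9 of them. It was 0.776 (0.725 to 0.831) in the Apol10a cluster, 0.446 (0.369 to 0.536) in the Slc37a2 cluster and 0.644 (0.587 to 0.707) in the Dmbt1 crypt-base cluster, but 0.99 (0.835 to 1.17) in the Smoc2 crypt-base cluster. Nuclei with an Aqp4 UMI held on average 5.39 of them in the wild-type and 4.23 in the knockout Apol10a cluster. For the colonocyte-like class as a whole the ratio was 0.869 (0.817 to 0.924), but this value depended on which nuclei entered the class. It was 0.353 with the libraries clustered separately and 0.481 with the stricter filter, and turned to 1.19 at the finer resolution and 1.09 with the transport genes allowed among the variable genes.

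Outside the epithelium Aqp4 had 126 and 82 counts, or 61.6 and 26.7 CPM, a ratio of 0.434 (0.324 to 0.578), which is further below 1 than that of the epithelium. Some of these counts came from single nuclei. Macrophage and dendritic-like nuclei had 26 and 2 counts, 50% of the wild-type ones in 1 nucleus, and T and innate lymphoid-like nuclei 16 and 5, with every wild-type count in 1 nucleus. Among enteroendocrine nuclei, the hormone cells, the cluster led by Gcg and Pyy stood at 345 and 180.4 CPM (29 and 20 counts).

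Aqp8, which passes water and hydrogen peroxide, was nearly confined to colonocyte-like nuclei. The Slc37a2 and Slc10a2 clusters together held 87.7% of its counts in each library but 11.3% of wild-type and 10.6% of knockout nuclei. In the Slc37a2 cluster the level was 355 CPM (321 to 392) and 634 CPM (579.9 to 693), wild-type before knockout, from 389 and 497 counts. In the Slc10a2 cluster it was 71.5 CPM (53.8 to 93) and 278 CPM (249.9 to 309), from 55 and 348 counts, with 21.8% of the wild-type counts in 1 nucleus. The knockout level was the higher in both clusters, and the intervals of the libraries did not overlap in either. The Apol10a cluster, where Aqp4 was highest, had 4 and 25 Aqp8 counts, or 4.03 and 12.8 CPM. Fibroblast-like nuclei, read as background, stood at 18.8 and 2.74 CPM.

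The Aqp8 ratio was 1.66 (1.48 to 1.85) over the epithelium, from 36.8 and 61.1 CPM, 1.79 (1.56 to 2.05) in the Slc37a2 cluster and 3.89 (2.92 to 5.28) in the Slc10a2 cluster. It was 4.0 without the Slc37a2 cluster and 2.22 with the levels inside each cluster weighted by the cluster shares of both libraries together. In the Slc37a2 cluster 32.6% of wild-type and 41.6% of knockout nuclei had an Aqp8 UMI, at median depths of 1976.5 and 1839 UMIs, and 14.8% and 21.4% after thinning to 500 UMIs. Fibroblast-like nuclei had 1.95% and 0.388% before thinning and 0.732% and 0.259% after it, at medians of 1335.5 and 1253 UMIs. In the same clusters Fos was 6.82-fold (5.85 to 7.99) and 3.37-fold (2.74 to 4.17) higher in the knockout library and Epcam 1.44-fold (1.31 to 1.59) and 1.32-fold (1.16 to 1.5), and Slc37a2 itself was lower in its own cluster, at 1269 and 749 CPM.

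**Figure D2:**
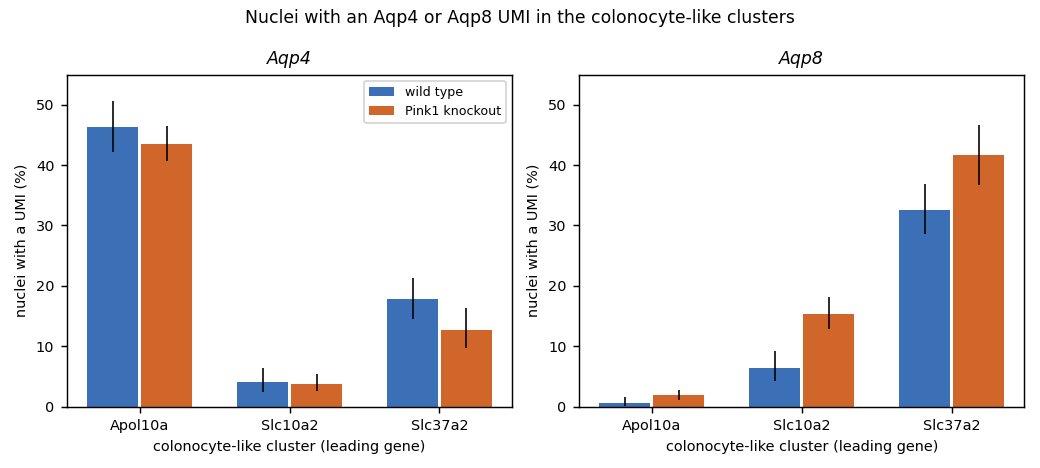
Share of nuclei (%) with a UMI of Aqp4 or Aqp8 in the 3 colonocyte-like clusters, by library, with exact 95% binomial intervals. Aqp4 was found in 46.4% and 43.6% of Apol10a nuclei and Aqp8 in 32.6% and 41.6% of Slc37a2 nuclei.

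Aqp4 and Aqp8 were seldom found in the same nucleus. Among colonocyte-like nuclei with an Aqp4 UMI, 4.97% (2.97 to 7.74) of wild-type and 4% (2.55 to 5.94) of knockout nuclei also had an Aqp8 UMI, against 16% (13.9 to 18.3) and 16.3% (14.6 to 18.2) of those without. The clusters differ in both genes, as given above. Inside the Slc37a2 cluster the shares were 14.3% (7.83 to 23.2) with and 36.6% (32 to 41.4) without Aqp4 in the wild-type library, and 25.5% (14.3 to 39.6) and 44% (38.7 to 49.4) in the knockout library. The nuclei with Aqp4 were the deeper ones, at medians of 2885 against 1821 UMIs and 2109 against 1816.5 UMIs. Only the wild-type intervals did not overlap.

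Hox genes mark position along the gut, those of the highest numbers the distal end. The Slc37a2 cluster had summed levels of 6 distal Hox genes (Hoxa13, Hoxb13 and Hoxd10 to Hoxd13) of 425 and 355 CPM and of 4 proximal ones (Hoxb6 to Hoxb9) of 84.9 and 90.6 CPM. In the Apol10a cluster this order was turned, with 53.5 and 58.4 CPM distal and 591 and 506 CPM proximal. The Slc10a2 cluster had 40.3 and 17.6 CPM distal and 294 and 202 CPM proximal. Over the epithelium the distal sum had a ratio of 0.982 (0.933 to 1.03), but over colonocyte-like nuclei it was 0.539 (0.474 to 0.614), with 4 of 5 measured distal genes at least 1.5-fold lower, as were 11.5% of all genes measured there. Inside the clusters the distal ratio was 1.09 (0.782 to 1.54) for Apol10a, 0.437 (0.241 to 0.779) for Slc10a2 and 0.834 (0.717 to 0.97) for Slc37a2. The part of gut position in the aquaporin ratios was not tested.

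Aqp11, an aquaporin of intracellular membranes, was spread over the epithelium and lower in its knockout nuclei. Epithelial nuclei had 812 wild-type and 500 knockout counts, or 62.3 CPM (58.1 to 66.7) and 32.3 CPM (29.5 to 35.3), a ratio of 0.519 (0.463 to 0.581). All 12 epithelial clusters with at least 20 counts had a ratio below 1, and in 10 of them the counting interval was below 1. Ratios ran from 0.272 (0.176 to 0.412) in the Slc10a2 cluster, with 100.1 and 27.2 CPM, to 0.888 (0.344 to 2.24) in the Meg3 cluster, with 18.7 and 16.6 CPM. The Apol10a cluster had 123 and 46.1 CPM, a ratio of 0.375 (0.282 to 0.496), and goblet-like nuclei had 53.3 and 24.9 CPM, a ratio of 0.467 (0.33 to 0.655). The clusters share the same mice and library and are no replicates of each other. Of epithelial nuclei 9.72% in the wild-type and 5.16% in the knockout library had an Aqp11 UMI, and 2.93% and 1.57% after thinning. Smooth muscle-like nuclei had 2.03% and 0.949%, and 1.36% and 0.38% after thinning. Nuclei outside the epithelium, at 23.0 and 10.1 CPM, had a ratio of 0.44 (0.27 to 0.707), though blood endothelium-like nuclei had 3 and 12 counts, or 35.3 and 76.8 CPM. That knockout level, with an interval of 39.7 to 134 CPM, was the highest of the 17 groups compared, and the interval overlapped that of crypt-base nuclei (39.5 to 58.6 CPM), the next in order. Over the 14 other settings of the processing the epithelial ratio ran from 0.465 to 0.534.

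Aqp1, the water channel of red cells and capillary walls, had its highest level in vessels. Most of its counts, 170 of 237 wild-type and 234 of 310 knockout ones, lay in epithelial nuclei. Lymphatic endothelium-like nuclei had 38 and 33 counts, or 355 CPM (251 to 487) and 238 CPM (164 to 334). Blood endothelium-like nuclei had 19 and 35 counts, or 224 CPM in each library. The endothelial intervals overlapped between the types and the libraries. With the stricter filter crypt-base nuclei ranked first among the classes compared. Over the other settings the top class level was at its lowest 36.7 and 56.2 CPM, wild-type before knockout. These values are close to the main crypt-base levels given next. Whether endothelial nuclei were still among the classes compared under that filter is not given here. The rank therefore does not show a fall in the endothelial level. Crypt-base nuclei had 77 and 114 counts, or 36.4 and 53.1 CPM, a ratio of 1.46 (1.08 to 1.97), and proliferating nuclei 29.4 and 28.4 CPM. Colonocyte-like nuclei, at 3.85 and 2.01 CPM, goblet-like nuclei, at 3.05 and 0.461 CPM, and the Gsdmc3 cluster, at 2.77 and 2.65 CPM, were low. The crypt-base and proliferating intervals lay above those of all 3. Fibroblast-like nuclei, read as background, had 1.56 and 1.83 CPM. Over the epithelium the ratio was 1.16 (0.948 to 1.42).

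Aqp3, an aquaporin that also passes glycerol and is known from the surface of the colon, had no count in any barcode of either library, filtered or not. No count in 6854 wild-type epithelial nuclei allows a share of up to 0.0438% with a UMI, and none in 8622 knockout nuclei up to 0.0348%, or levels of 0.23 and 0.194 CPM. These limits are those of 3 counts and cover counting error only. Aqp3 was among 8357 of 32285 genes with no count in both libraries, and no other gene overlaps it in GENCODE M21 (chromosome 4, 41092722 to 41098183, minus strand). An exact 0 over so many nuclei is given as what the files list, not as absence of the transcript. Of 7 further aquaporin genes (Mip, Aqp2, Aqp5, Aqp6, Aqp7, Aqp9 and Aqp12) none reached 20 counts. Aqp7 had the most, 5 and 9.

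Kcne3, Kcnn4 and Kcnq1, the channel genes of chloride-secreting crypts, shared a pattern along the crypt. Each was high in crypt-base and proliferating nuclei and in the Nxpe4 cluster and low in colonocyte-like and goblet-like nuclei. In the Gsdmc3 cluster Kcne3 and Kcnn4 were intermediate, while Kcnq1, at 13.8 and 15.4 CPM, overlapped its colonocyte level. Kcne3 stood at 267 and 370.0 CPM in crypt-base nuclei against 35.4 CPM in colonocyte-like nuclei of both libraries and 38.6 and 49.3 CPM in goblet-like nuclei. Kcnn4 stood at 93.1 and 171 CPM in crypt-base nuclei against 6.3 and 14.3 CPM in colonocyte-like and 11.7 and 10.1 CPM in goblet-like nuclei. Kcnq1 stood at 72.3 and 71.2 CPM in crypt-base nuclei against 11.9 and 10.5 CPM in colonocyte-like and 2.54 and 1.84 CPM in goblet-like nuclei. In no case did the crypt-base interval overlap the others.

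**Figure D3:**
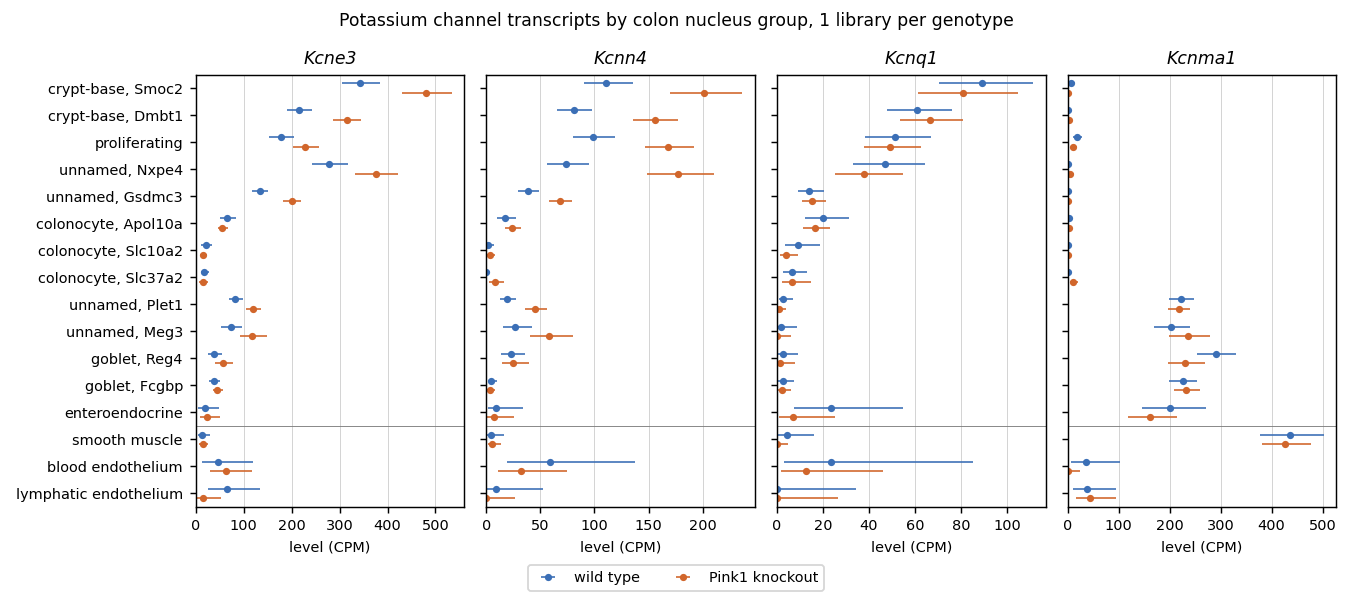
Levels (CPM, linear axes that differ between panels) of Kcne3, Kcnn4, Kcnq1 and Kcnma1 in epithelial groups (above the line) and in muscle and endothelium (below it), 1 point per library with 95% counting intervals. Kcne3, Kcnn4 and Kcnq1 are highest in crypt groups, while Kcnma1 is high in goblet-like, enteroendocrine, Plet1, Meg3 and smooth muscle groups and at most 43.2 CPM in the others drawn.

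Over 34 points, 17 groups in each of 2 libraries, the log2 levels of Kcne3 correlated with those of Kcnn4 at r = 0.80 and of Kcnq1 at r = 0.69. Kcnq1 correlated with Kcnn4 at 0.63, which is less than with Aqp4 (0.73) or Aqp11 (0.71). The points share libraries, depth and free RNA, so these values only describe the pattern. Among 13056 genes the most similar to Kcne3 were Pigr (0.90), which encodes the immunoglobulin receptor of epithelia, the RNA-binding protein gene Hnrnpd (0.90) and Myb (0.89), a transcription factor. Hnrnpd (0.85) was also the most similar to Kcnn4, and Synj2bp (0.87) to Kcnq1. For Aqp4 they were Utp20 (0.91), Tubal3 (0.91) and Hao2 (0.90), and for Aqp8 Slc9a3 (0.86), the sodium-proton exchanger of the apical membrane. Aqp1 was most like Ecscr (0.86), Aqp11 like Rhbdl2 (0.86) and Kcnma1 like Sytl2 (0.83). Aqp4 and Aqp8 correlated at 0.23, and Aqp4 and Kcnma1 at -0.58.

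Kcnn4 was the channel gene with the largest difference between the libraries. It had 523 wild-type and 1080 knockout counts over the epithelium, or 40.1 CPM (36.8 to 43.7) and 69.8 CPM (65.7 to 74.1), a ratio of 1.74 (1.57 to 1.93). The ratio was above 1 in all 9 epithelial clusters with at least 20 counts, and the counting interval was above 1 in 7 of them. It was highest in the Nxpe4 cluster, with 73.4 and 177 CPM and a ratio of 2.42 (1.76 to 3.35), and lowest in the Reg4 goblet-like cluster, at 1.08 (0.525 to 2.23). Crypt-base nuclei had 1.83 (1.54 to 2.19) and proliferating nuclei, with 98.5 and 168 CPM, 1.71 (1.35 to 2.18). Over all goblet-like nuclei the ratio, from 23 and 22 counts, was 0.869 (0.462 to 1.63). Epcam had 1.26 (1.16 to 1.36) in crypt-base nuclei. Outside the epithelium the level was 16.6 and 17.0 CPM, a ratio of 1.02 (0.649 to 1.62). Of crypt-base nuclei 14% in the wild-type and 20.8% in the knockout library had a Kcnn4 UMI, and 4.6% and 7.04% after thinning. Among fibroblast-like nuclei none of 410 wild-type ones had a UMI, which allows a share of up to 0.732% (3 counts), and 0.517% of knockout ones did, or 0.259% after thinning. Median depths were 1510 and 1419 UMIs in crypt-base and 1335.5 and 1253 UMIs in fibroblast-like nuclei. Over the 14 other settings the epithelial ratio ran from 1.6 to 1.87. Plasma-like nuclei had 187 and 227 CPM, though from 9 and 21 counts.

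Kcne3 was higher in the knockout library by less. It had 1569 and 2376 epithelial counts, or 120.4 and 154 CPM, a ratio of 1.28 (1.2 to 1.36), which is no larger than that of Epcam. The ratio was above 1 in 9 of 12 clusters and the interval in 7. It was 1.4 (1.2 to 1.64) in the Smoc2 crypt-base cluster, where the levels were 342 and 480.1 CPM, and 1.5 (1.28 to 1.75) in the Gsdmc3 cluster, with 134 and 200.2 CPM. In the 3 colonocyte-like clusters it was 0.852, 0.769 and 0.839, each with an interval that included 1. Of crypt-base nuclei 30.3% and 37.7% had a Kcne3 UMI, and 10.6% and 16% after thinning. Smooth muscle-like nuclei had 2.03% and 1.9%, and 0.678% and 0.38% after thinning.

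Kcnq1, the pore subunit that Kcne3 binds, had 318 and 332 epithelial counts, or 24.4 CPM (21.8 to 27.2) and 21.5 CPM (19.2 to 23.9), a ratio of 0.879 (0.752 to 1.03). In crypt-base nuclei the ratio was 0.985 (0.782 to 1.24), and no cluster had an interval that left out 1. The gene (chromosome 7, 143106362 to 143427042, plus strand) is overlapped on the other strand by the noncoding RNA Kcnq1ot1, which had 20639 and 18973 epithelial counts and a ratio of 0.774 (0.759 to 0.79). The sources used here do not say whether strand was used in counting, and without it reads of the pair cannot be told apart. Kcnq1ot1 stood at 2194 and 2095 CPM in crypt-base nuclei and at 2021 and 1465 CPM in goblet-like nuclei, where Kcnq1 had 2.54 and 1.84 CPM. Crypt-base nuclei with a Kcnq1 UMI also had a Kcne3 UMI in 44.4% (35.8 to 53.2) of wild-type and 46.3% (37.7 to 55.1) of knockout cases, against 28.6% (26 to 31.3) and 36.8% (34.2 to 39.5) of those without. With Kcnn4 the shares were 40.6% (33.3 to 48.1) against 28.6% (25.9 to 31.4), and 51% (45.2 to 56.8) against 34.2% (31.4 to 37.1). Nuclei with the channel UMI were the deeper ones in each case, for Kcnq1 at medians of 2025 against 1449 UMIs in the wild-type library, and for Kcnq1 the knockout intervals overlapped. These shares pool the Smoc2 and Dmbt1 clusters, and shares inside each cluster are not given here. In the wild-type library Kcnq1 stood at 89.0 and 60.7 CPM in these clusters and Kcnn4 at 111 and 80.7 CPM, with intervals that overlapped.

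**Figure D4:**
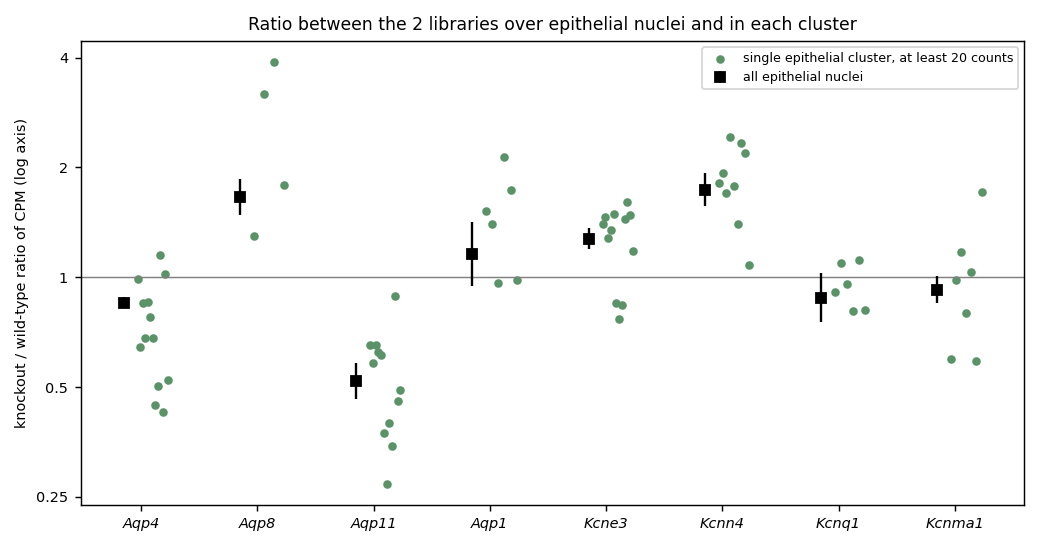
Knockout over wild-type ratio of CPM (log axis) for 8 genes, over all epithelial nuclei (squares, with 95% counting intervals) and in each epithelial cluster with at least 20 counts (dots, in no particular order). All 12 Aqp11 dots lie below 1 and all 9 Kcnn4 dots and 4 Aqp8 dots above it.

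As Kcnn4 and Kcne3 were high in the same crypt groups and Aqp8 was nearly confined to colonocytes, the sequence upstream of these 3 genes is shown, from the RefSeq promoter table for GRCm38.p6. Of the 9 genes 7 had an entry there. Each line gives 5' to 3' the bases before the start site on the gene's strand that no annotated exon covers, with matches to a GC box (GGGCGG, or CCGCCC on the other strand), a letter pattern bound by Sp-type factors, in capitals. They lie at chr7:24370013-24370262 (Kcnn4), chr7:100178433-100178682 (the second of 2 Kcne3 starts, inside the gene) and chr7:123462044-123462290 (Aqp8), all on the plus strand.
Kcnn4: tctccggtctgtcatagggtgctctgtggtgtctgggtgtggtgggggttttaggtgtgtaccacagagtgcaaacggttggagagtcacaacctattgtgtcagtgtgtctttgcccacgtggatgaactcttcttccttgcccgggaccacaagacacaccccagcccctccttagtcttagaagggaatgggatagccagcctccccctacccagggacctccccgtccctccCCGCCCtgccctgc
Kcne3: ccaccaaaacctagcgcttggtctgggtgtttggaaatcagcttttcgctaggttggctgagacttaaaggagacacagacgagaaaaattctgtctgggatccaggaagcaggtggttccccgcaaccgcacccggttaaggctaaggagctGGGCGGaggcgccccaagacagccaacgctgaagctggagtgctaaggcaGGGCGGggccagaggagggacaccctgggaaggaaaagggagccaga
Aqp8: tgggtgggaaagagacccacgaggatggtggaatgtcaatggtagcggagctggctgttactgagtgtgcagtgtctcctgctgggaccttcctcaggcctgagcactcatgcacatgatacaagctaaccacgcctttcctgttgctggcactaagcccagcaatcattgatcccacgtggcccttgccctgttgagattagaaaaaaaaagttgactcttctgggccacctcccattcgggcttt
Kcnn4 had 1 GC box, at bases -14 to -9 from its start, this Kcne3 start had 2, at -97 to -92 and -47 to -42, and Aqp8 had none. Among the genes not shown, Aqp1, Aqp3 and Kcnma1 also had a GC box and Aqp11 had none. The GC box therefore did not divide the crypt genes from the others. Of all promoters of the same length 32.7% held a GC box on either strand. A further 5 patterns were searched on both strands. The AP-1 pattern TGANTCA was in 6.75% of all promoters. The EGR pattern GNGTGGGCG was in 2.57%. The TCF pattern CTTTGAT was in 3.21%. The HNF4 pattern CAAAGTC was in 3.84%. The TATA pattern TATAAA was in 12.4%. None of the 5 matched in the 3 stretches shown. The first Kcne3 start had an AP-1 match at -37 to -31, in a window that is part of an exon in GENCODE. A match is a description of letters and not a binding site.

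Kcnma1, the pore subunit of the large-conductance channel, was found in muscle and in a set of epithelial groups other than the crypt-base and colonocyte-like ones. Where these groups lie along the crypt was not measured. Smooth muscle-like nuclei had 195 and 322 counts, or 436 CPM (377 to 502) and 427 CPM (382 to 476). In the epithelium the Reg4 and Fcgbp goblet-like clusters stood at 290.2 and 231 CPM and at 225 and 233 CPM, the Plet1 cluster at 222 and 218 CPM, the Meg3 cluster at 202 and 237 CPM and enteroendocrine nuclei at 202 and 161 CPM. Crypt-base nuclei, at 3.31 and 1.86 CPM, and colonocyte-like nuclei, at 1.4 and 3.51 CPM, were near 0. Enteric neuron-like nuclei had 463 and 956 CPM, but there were only 17 and 4 of them. Goblet-like nuclei with a UMI made up 34.6% and 32.7%, and 10.5% and 12% after thinning, against 0.271% and 0.478% of colonocyte-like nuclei, and 0.135% and 0.174% after thinning. Median depths were 1863 and 1804 UMIs in goblet-like and 1722.5 and 1610 UMIs in colonocyte-like nuclei.

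The libraries differed little in Kcnma1. The ratio was 0.925 (0.85 to 1.01) over the epithelium, from 1038 and 1140 counts or 79.7 and 73.7 CPM, 0.923 (0.814 to 1.05) in goblet-like nuclei and 0.979 (0.817 to 1.18) in those of smooth muscle. Only the Reg4 goblet-like cluster, at 0.796 (0.647 to 0.977), had a counting interval that left out 1 among the 7 epithelial clusters with at least 20 counts. These intervals do not show that the levels were the same.

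Partner subunits divided by tissue. Lrrc26, which lets the Kcnma1 channel open at resting voltage, was in goblet-like nuclei at 50.2 and 48.9 CPM (99 and 106 counts) and in colonocyte-like nuclei at 8.75 and 7.78 CPM, and no class outside the epithelium reached 20 counts. Goblet-like nuclei with a Kcnma1 UMI had Lrrc26 in 12.9% (9.48 to 16.9) and 11% (8.01 to 14.7) of cases. Those without had it in 7.3% (5.39 to 9.62) and 7.26% (5.5 to 9.36), and the intervals overlapped in both libraries. The nuclei with Kcnma1 were the deeper ones, at medians of 2226 against 1656 UMIs and 1981.5 against 1733.5 UMIs. Over the 34 points described above, Kcnma1 correlated with Lrrc26 at r = 0.28. Kcnmb1, the beta subunit of muscle, was in smooth muscle-like nuclei at 69.4 and 90.2 CPM, 31 of 39 wild-type and 68 of 77 knockout counts. Kcne4, an inhibitory subunit of Kcnq1-type channels, had 6 and 39 counts in smooth muscle-like nuclei, or 13.4 and 51.7 CPM, a ratio of 3.85 (1.62 to 11.1). There Kcnn2, a small-conductance channel, had 31.3 and 38.5 CPM. Kcnn3, of the same family, was in the mixed cluster, which carried pericyte and interstitial cell of Cajal markers, at 452 and 351 CPM, and in lymphatic endothelium-like nuclei at 159 and 202 CPM, and Kcnq3 in enteric neuron-like nuclei (42 and 12 counts).

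Over the epithelium, 8 of the 9 genes had at least 20 counts. Aqp8 and Kcnn4 were at least 1.5-fold higher in the knockout library, as were 5.08% of all 14898 genes measured there. Aqp11 was as much lower, as were 8.62%. Their median log2 ratio was 0.05, against -0.05 over all genes measured. In colonocyte-like nuclei Kcnn4 was higher and Aqp11 lower among 6 measured, against 6.42% and 11.5% of all genes. In crypt-base nuclei the same applied to Kcnn4 and Aqp11 among 6, against 6.86% and 6.83%. In goblet-like nuclei none of 6 was higher and Aqp11 was lower, against 6.29% and 12.4%. In proliferating nuclei Kcnn4 was higher and Aqp11 and Kcnma1 (19 and 14 counts) lower among 7, against 6.79% and 8.81%. In smooth muscle-like nuclei 2 were measured and Aqp4 (19 and 16 counts) was lower, against 11.5%. Over all nuclei Aqp8 and Kcnn4 were higher and Aqp11 lower among 8, against 6.62% and 8.03%.

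The other transport genes are described by list, beside the 5.08% of all genes measured over the epithelium that were at least 1.5-fold higher and the 8.62% that were as much lower. Of 16 other epithelial potassium channel and pump genes 10 were measured over the epithelium. Their median log2 ratio was 0.24, 1 passed 1.5-fold upward and 0 downward. It was Atp12a, the potassium-absorbing pump of the colon surface, with 34 and 66.4 CPM and a ratio of 1.95 (1.75 to 2.19). Kcnk1, a tandem-pore channel, had 1.37 (1.2 to 1.56), the sodium pump regulator Fxyd4 0.852 (0.73 to 0.995) and Fxyd3 0.954 (0.844 to 1.08). Of 16 partner and related subunits 2 were measured, with none past 1.5-fold either way and a median of -0.16. Lrrc26 had a ratio of 1.03 (0.838 to 1.27) and Kcnn1 0.778 (0.324 to 1.85).

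Of 12 chloride and bicarbonate genes 11 were measured, with none higher, 1 lower and a median of -0.10. A count of 1 in 11 lower is near the 8.62% of all genes. Car2, a cytosolic carbonic anhydrase, was the lower one, at 423 and 273 CPM and 0.646 (0.62 to 0.672), and the bicarbonate cotransporter gene Slc4a4 had 0.776 (0.727 to 0.829). The chloride channel gene Clcn2 had 1.38 (1.29 to 1.48) and Best2, a goblet cell anion channel, 1.45 (1.29 to 1.64). All 11 sodium absorption genes were measured, with 3 higher, against 5.08% of all genes, none lower and a median of 0.27. Sgk1, a kinase that raises sodium uptake, had 56.5 and 361 CPM, a ratio of 6.39 (5.92 to 6.91), and Slc9a3, the gene most like Aqp8 in pattern, 90.2 and 238 CPM and 2.64 (2.47 to 2.82). The other one was Hsd11b2, which shields the aldosterone receptor from glucocorticoids, at 110.4 and 189.7 CPM and 1.72 (1.61 to 1.83), outside the naming rule and named after its value was seen. Nr3c2, the aldosterone receptor, had 0.794 (0.758 to 0.831) and the short-chain fatty acid transporter gene Slc5a8 0.773 (0.738 to 0.811). With each nucleus thinned the sodium list's median over the epithelium was 0.09. By class the median was -0.14 in colonocyte-like, -0.13 in crypt-base, -0.17 in proliferating and 0.24 in goblet-like nuclei. In colonocyte-like nuclei 3 of 11 were higher and 2 lower, against 6.42% and 11.5% of all genes. Crypt-base nuclei had 4 of 9 higher and 1 lower, against 6.86% and 6.83%. Goblet-like nuclei had 4 of 10 higher and none lower, against 6.29% and 12.4%. Proliferating nuclei had 1 of 8 higher and 1 lower, against 6.79% and 8.81%.

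**Figure D5:**
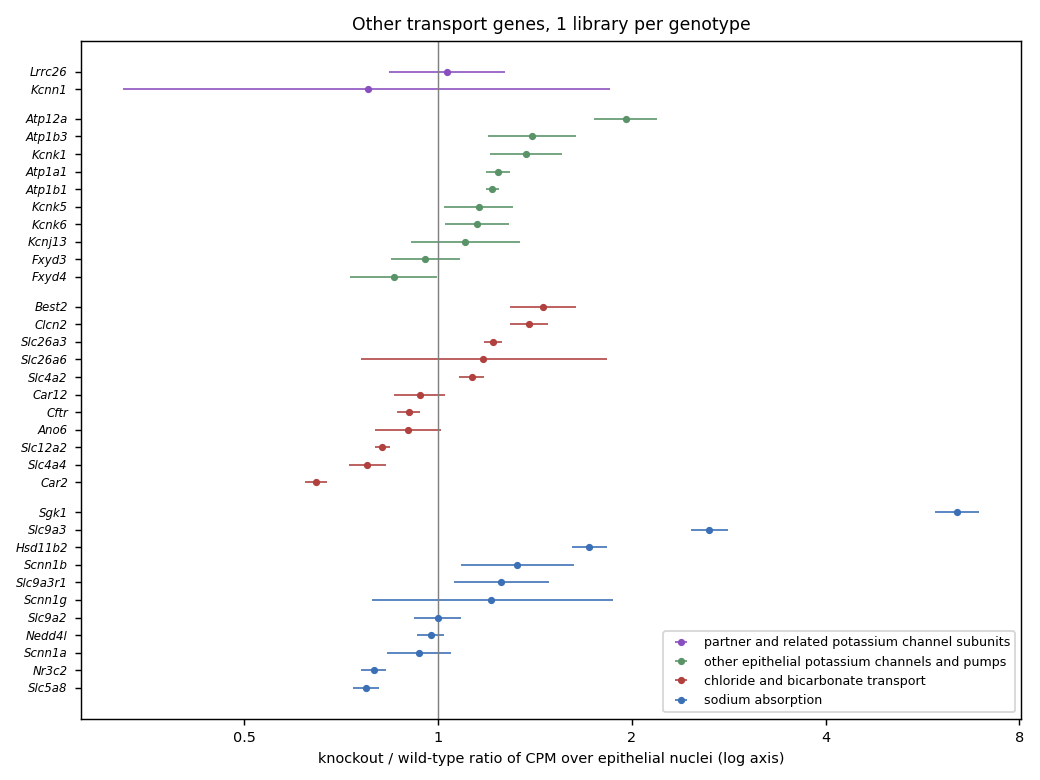
Knockout over wild-type ratio of CPM over epithelial nuclei (log axis, 95% counting intervals) for list genes with at least 20 counts, ordered within each list. Sgk1 at 6.39, Slc9a3 at 2.64 and Atp12a at 1.95 lie farthest above 1 and Car2 at 0.646 farthest below.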

How the data were processed

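The authors deposited raw UMI counts for each gene and barcode. Per the file headers they came from Cell Ranger 6.1.2. The submitters' processing notes name mm10 and GRCm38 as the build. Annotation release, intron counting, strand use and earlier doublet removal: not given in the sources used here. Barcodes with at least 500 UMIs, at least 300 genes and at most 10% mitochondrial UMIs were kept (8888 of 8924 wild-type, 12146 of 12230 knockout). The highest Scrublet scores, 0.8% per 1000 barcodes, were then removed as doublets (632 and 1180). The file totals were 16997995 and 22446326 UMIs.

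Both libraries were clustered together with scanpy 1.11.5 and leidenalg 0.10.2: scaling to 10000 UMIs, log transform, 2000 variable genes without mitochondrial, Xist, Y-linked, Pink1, member and transport genes, 30 components, 20 neighbours, resolution 1. A cluster took the class whose markers had the highest mean log2 fold (5 CPM added), if at least 0.3 with at least 3 markers 2-fold or more above the other clusters. It was left mixed if a second class came within 1 log2 unit. An unnamed cluster counted as epithelial if its epithelial markers summed to at least 1000 CPM and no other tissue's class reached 0.3. Intervals are exact (Poisson for levels, Clopper-Pearson for shares, conditional binomial for ratios). The floor for 0 is 3 counts. The ratio intervals were tested on summed counts simulated with counting error alone, which is the error they assume. That test held no nuclei and cannot show how the intervals hold for UMIs clustered in nuclei.

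The genes, lists and naming rule were chosen with earlier results of these data known. Named list genes are the 2 highest and the 2 lowest of each list by the interval bound nearest 1, and named partner subunits those with at least 20 counts in a class. Similar genes are the 3 with the highest Pearson correlation of log2(CPM + 5), for genes with at least 100 counts and groups with at least 50 nuclei per library. The symbols Kcne5 and Best4 were not matched, and 1 listed subunit gene is not reported here. Gene coordinates come from GENCODE M21.

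The 12 alternatives planned were other nucleus filters, doublet rules and clusterings, thinning, scaling, free RNA subtraction and cluster weighting. A further 2 were chosen after seeing the data: leaving out the Slc37a2 cluster, and leaving immediate early genes out of the total.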

Additional observations from a re-analysis of the deposited data

How the results depend on the processing

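Of 112 ratios over the epithelium (8 genes, 14 settings), 105 stayed inside the main counting interval. The Aqp4 ratio (0.853) was 0.801 with the stricter filter, 0.816 with separate clustering and 0.758 at the joint cluster mix. That mix gave 2.22 for Aqp8 (1.66) and 1.36 for Kcne3 (1.28), and Aqp8 was 4.0 without the Slc37a2 cluster. Thinning to 500 UMIs gave 1.03 for Kcnma1 (0.925) and a sodium absorption median of 0.09 (0.27), and the partner subunit median (-0.16) was -0.03 with the stricter filter and -0.26 without the Slc37a2 cluster. Within classes, 254 of 275 ratios stayed inside the interval. Where the main interval left out 1, 2 turned, both Aqp4 in colonocyte-like nuclei (0.869): 1.19 at resolution 2 and 1.09 with the transport genes allowed among the variable genes. Of the 19 others that moved, the same ratio was 0.353 with separate clustering and 0.481 with the stricter filter. The Aqp4 ratio of crypt-base nuclei (0.744) ran from 0.536 to 0.908, that of goblet-like nuclei (0.752) from 0.491 to 1.04, and the Kcnq1 ratio of colonocyte-like nuclei (0.885) from 0.348 to 0.908. The cause was not tested. The named class with the highest level was the same in 160 of 176 cases. It moved for Aqp1 (blood endothelium or crypt-base), Aqp4 (crypt-base or proliferating) and, in 5 cases, for Aqp11 and Kcnn4 to crypt-base nuclei. Whether the class that led before was still compared in each of these cases is not given here. No paired analysis was possible because each genotype has 1 library, and no replicate could be left out. Depth limits single clusters: genes with fewer than 20 counts in a cluster were not compared there.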
